A study of Rattus norvegicus with 20 samples.

Results

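UDP-glucuronosyltransferases (UGTs) were examined in rat liver mRNA profiles, 7 ProbeSets of 15923 on the Affymetrix RAE230A array. They were found by the array annotation under the 7 listed symbols Ugt2b, Ugt2b15, Ugt2b35, Ugt2b1, Ugt2b17, Ugt1a6 and Ugt1a1. Ugt2b had 2 ProbeSets, called the first and the second, and Ugt2b15, Ugt2b35 and Ugt2b1 had 1 each. Ugt1a6 and Ugt1a1 shared 2 ProbeSets, each annotated to 8 genes of the Ugt1a cluster, so these are called the first and the second Ugt1a ProbeSet and name no single enzyme. Ugt2b17 had 0 ProbeSets under its own name, which is listed as an older name of both Ugt2b15 and Ugt2b1. All 7 ProbeSets had a mean log2 signal above 4, which was used as the limit of expression.

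UGTs sit in the endoplasmic reticulum and move glucuronic acid from UDP-glucuronic acid onto bilirubin, steroids, bile acids, drugs and other lipophilic compounds, which can then leave the cell in bile or blood. The enzymes of the Ugt1a cluster are made by splicing alternative first exons to a common set of later exons, among them the bilirubin-conjugating Ugt1a1 and the phenol-conjugating Ugt1a6, a known target of the aryl hydrocarbon receptor (AHR). The Ugt2b enzymes come from separate, closely related genes and are known for conjugating steroids and bile acids.

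Hepatic mRNA was measured in 20 male rats aged 10 to 12 weeks, 1 rat per array and 4 rats per group. S-D rats are Sprague-Dawley and were out-bred. L-E stands for an in-bred strain, Long-Evans (Turku/AB), and H/W for a random-bred closed colony, Han/Wistar (Kuopio). Line-A and Line-C descend from crosses of L-E with H/W. The Ahr gene is wild-type in S-D, L-E and Line-C and mutant in H/W and Line-A. By the protocol every rat had received corn oil, the vehicle, by gavage 19 h before the liver was taken, although the S-D labels say only control. Whole liver was profiled, so that fewer cells of a type and less mRNA per cell cannot be told apart.

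The values are log2 signals and are compared within a ProbeSet only. Each of the 20 arrays correlated best with an array of its own group. Of 12 hepatocyte markers on the array, 0 were under a log2 signal of 4 in all arrays, and their summed log2 level lay between 18.18 and 18.38. Here and below this level is the log2 of the summed linear signals, so the strongest markers of a list mainly set it. The S-D arrays were scanned on a day of their own, both lines shared 1 day, and the H/W and L-E arrays were spread over the other 3 days. Scan day and group cannot be told apart for S-D against the rest or for the lines against the parental strains, whereas Line-A and Line-C shared a day. Fits with scan day as a random block cannot remove a day effect from the contrasts without a shared day.

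The promoters of the Ugt2b genes are shown first because of 3 genes with a common stretch of bases, 1 was near the floor of the array in L-E and H/W and the other two were not. The 150 bases before the annotated start are given 5′ to 3′ on the plus strand from RefSeq (GRCr8, an assembly of a BN rat and not of the strains studied here). Capitals mark the longest run of bases that the 300-base promoter windows of Ugt2b, Ugt2b15 and Ugt2b35 have in common, 31 bases long.
Ugt2b (chr14:20985299-20985448): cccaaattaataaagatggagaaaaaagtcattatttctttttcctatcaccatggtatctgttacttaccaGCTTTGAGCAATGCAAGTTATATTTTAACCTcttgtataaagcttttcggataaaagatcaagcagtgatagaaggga
Ugt2b15 (chr14:21122716-21122865): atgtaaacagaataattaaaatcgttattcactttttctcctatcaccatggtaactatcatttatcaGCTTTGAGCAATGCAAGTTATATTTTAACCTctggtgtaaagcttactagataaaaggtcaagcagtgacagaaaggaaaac
Ugt2b35 (chr14:21208291-21208440): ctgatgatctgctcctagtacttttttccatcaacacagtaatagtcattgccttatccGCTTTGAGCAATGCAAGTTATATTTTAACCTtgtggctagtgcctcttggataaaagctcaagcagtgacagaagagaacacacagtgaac
Ugt2b1 (chr14:21378732-21378881): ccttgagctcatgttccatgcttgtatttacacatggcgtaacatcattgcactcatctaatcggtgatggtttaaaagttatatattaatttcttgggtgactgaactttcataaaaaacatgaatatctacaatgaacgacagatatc

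The common run began 78 bases before the start of Ugt2b, 82 before that of Ugt2b15 and 91 before that of Ugt2b35. It was absent from the window of Ugt2b1. Searched on both strands, it was found in 5 of 33469 promoter windows (0.0149%), those of Ugt2b, Ugt2b15, Ugt2b35, Ugt2b37 and an uncharacterised locus. Because the run was taken from the windows of Ugt2b, Ugt2b15 and Ugt2b35, its presence there was given, and this share is a description only. Over the 300 bases of each window, Ugt2b was 66.7% identical to Ugt2b15, 60.6% to Ugt2b35 and 51.7% to Ugt2b1. The last value is close to that between Ugt2b and Ugt1a1 (52.2%), which lie on different chromosomes. The reference strain thus has the common run upstream of Ugt2b, a gene with hardly any signal in L-E and H/W, and upstream of 2 genes whose signals were far above the limit of expression in every group. The sequences of the L-E and H/W promoters were not analysed here, and any part of the run in these levels was not tested.

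Ugt2b mRNA was near the floor of the array in both parental strains and abundant in S-D and in both lines. For the first Ugt2b ProbeSet the 4 S-D arrays read 13.83, 13.74, 13.72 and 13.75, the Line-A arrays 13.63, 13.68, 13.55 and 13.23, and the Line-C arrays 13.67, 13.81, 13.32 and 13.41. The L-E arrays read 3.70, 3.62, 3.68 and 3.64 and the H/W arrays 3.90, 3.57, 3.20 and 3.89. All 8 parental arrays were thus under the limit of expression, and the 12 others were far above it. The group means were 13.76 ± 0.05 in S-D, 13.52 ± 0.20 for Line-A, 13.55 ± 0.23 for Line-C, 3.66 ± 0.04 in L-E and 3.64 ± 0.33 in H/W (SD, n = 4). Set against the limit of 4 instead of the parental means, S-D was at least 868-fold higher, Line-A at least 736-fold and Line-C at least 751-fold.

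The second Ugt2b ProbeSet separated the same groups on a smaller scale. Its means were 10.44 ± 0.09 for Line-A, 10.40 ± 0.19 for Line-C and 10.57 ± 0.12 for S-D, against 4.65 ± 0.05 in L-E and 4.41 ± 0.26 in H/W. The 8 parental arrays lay between 4.16 and 4.72 and the 12 others between 10.15 and 10.69. From these means, which are above the limit of 4 by less than 1 log2 unit in the parental strains, the fold differences between a high and a low group were 53.6 (Line-C over L-E) to 71.6 (S-D over H/W). The gene family was chosen by these log2 signals of Ugt2b in the 5 groups, so they are given as a description and without a test.

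**Figure D1:**
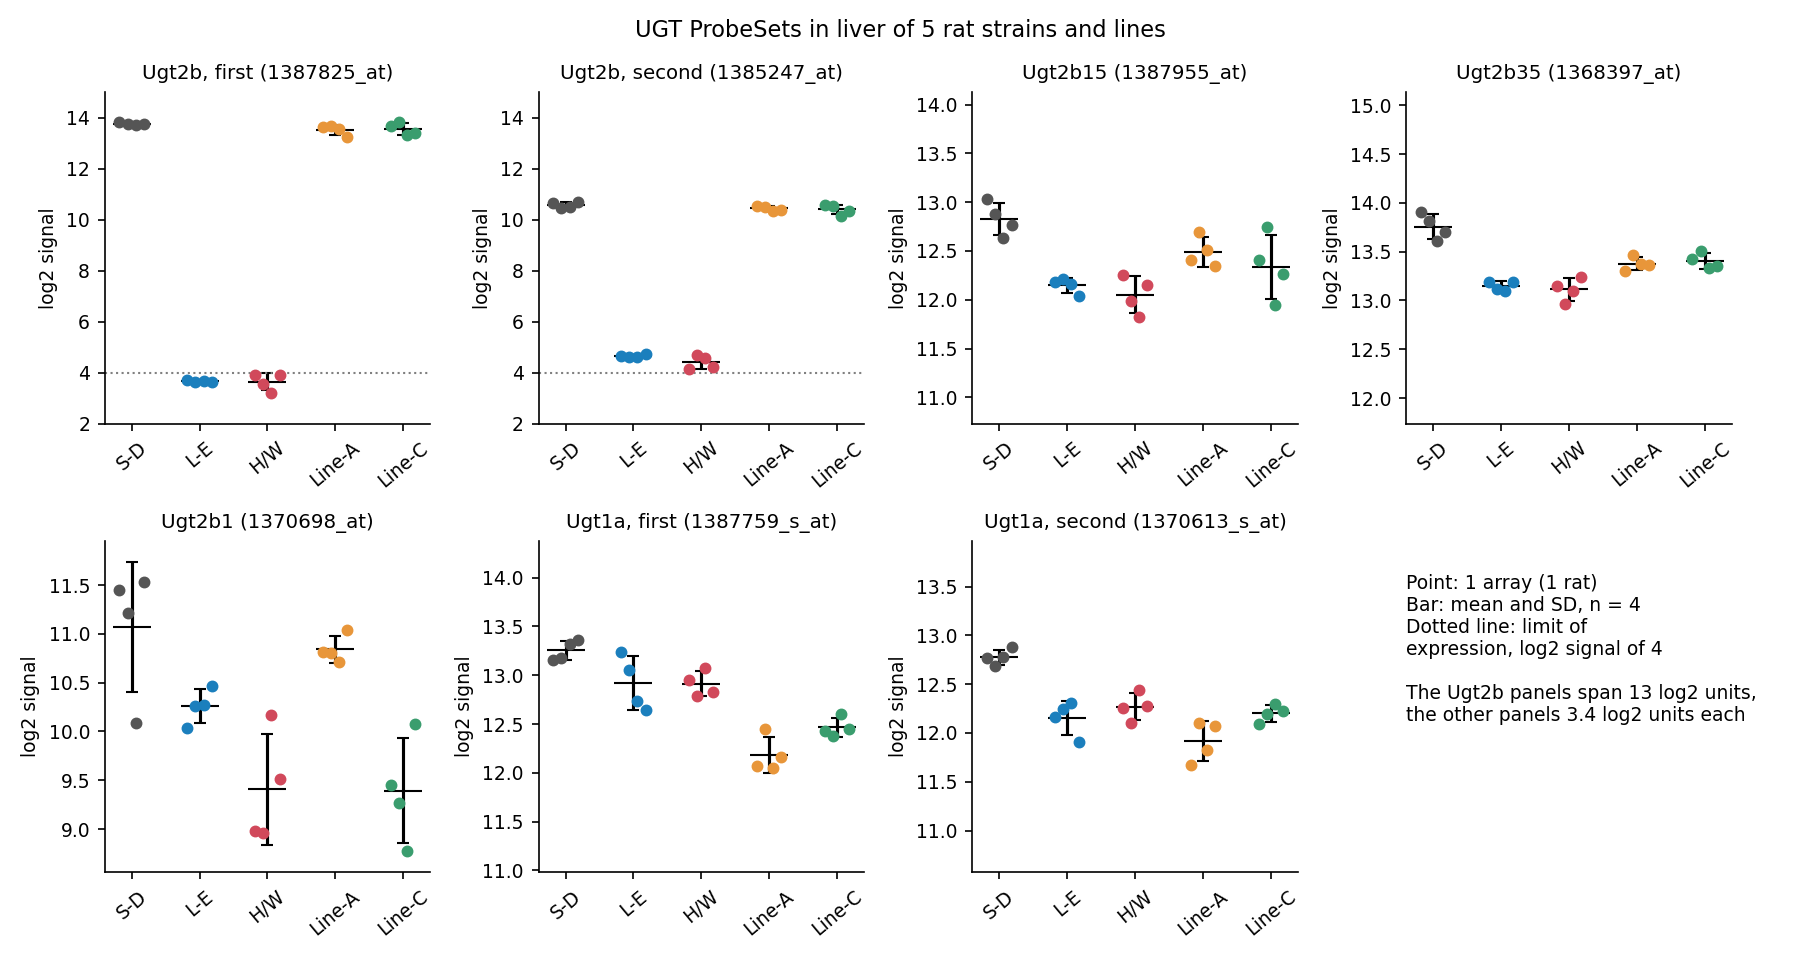
log2 signal of the 7 UGT ProbeSets in each of 20 arrays (points), by strain or line, with group mean and SD (bars, n = 4). The Ugt2b panels span 13 log2 units and show L-E and H/W at or near the limit of expression (dotted line at 4), whereas the other panels span 3.4 log2 units and show every group well above that limit.

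The size of this contrast was described by a gap, the lowest of the 12 S-D, Line-A and Line-C arrays minus the highest of the 8 H/W and L-E arrays. This split of the groups was taken from the levels of Ugt2b itself, so its ranks are a description and lend no support. The gap was 9.33 log2 units for the first Ugt2b ProbeSet and 5.43 for the second. These were ranks 1 and 2 of the 15923 ProbeSets, and no other ProbeSet had a gap over 1 in this direction. The gap rests on extreme arrays. By the mean of the 12 minus that of the 8 arrays, 4 ProbeSets exceeded 3 log2 units in this direction, 1 in the other. Beside both Ugt2b ProbeSets, these 4 held ProbeSets without a gene symbol, at 3.29 and 3.15. The means in S-D, Line-A, Line-C, L-E and H/W were 11.23, 10.10, 9.84, 7.05 and 7.15 for that at 3.29. For that at 3.15 they were 6.41, 4.96, 4.15, 1.90 and 2.15. In all, 36 ProbeSets (0.226%) had any gap above 0, that is arrays that did not overlap, and 17 (0.107%) had one with the groups turned round. Ugt2b35 was also among the former, with a gap of 0.06, whereas the arrays of Ugt2b15, Ugt2b1 and both Ugt1a ProbeSets overlapped.

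The named ProbeSets most like Ugt2b by this measure over the 20 arrays were Slc40a1 (the iron exporter ferroportin, gap 0.24), Tmem123 (0.22), Fkbp2 (a prolyl isomerase of the endoplasmic reticulum, 0.13), Rnf115 (0.12) and Rnf103 (0.12, both RING-finger proteins). Their group means differed by far less than those of Ugt2b. Those of Slc40a1 were near or under the limit of expression of 4, at 4.08 in S-D and 3.01 to 3.66 elsewhere. Tmem123 was well above that limit and lay between 9.41 and 9.54 in S-D and the lines against 8.73 in L-E and 8.87 in H/W. In the opposite direction, with both parental strains above the rest, the largest gaps of named ProbeSets were those of Crot (peroxisomal carnitine octanoyltransferase, 0.54), Oplah (5-oxoprolinase, 0.35) and Sult1e1 (estrogen sulfotransferase, 0.28).

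**Figure D2:**
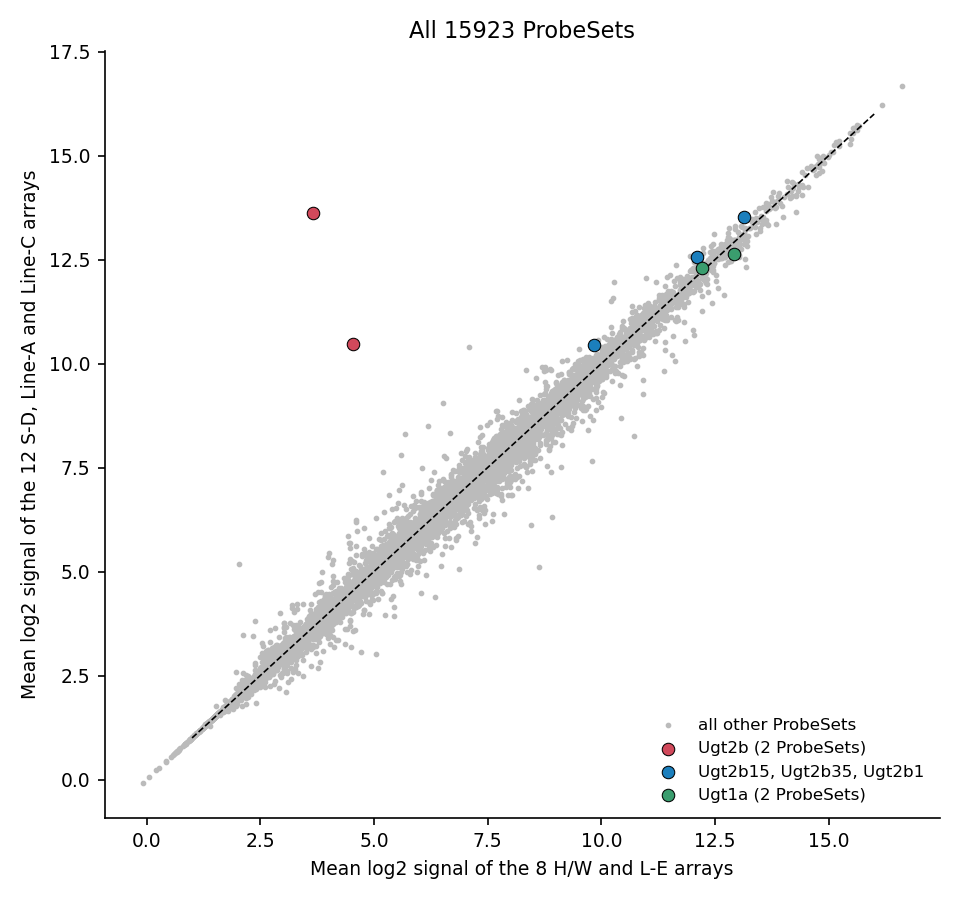
Mean log2 signal of the 8 H/W and L-E arrays (x axis) against that of the 12 S-D, Line-A and Line-C arrays (y axis) for all 15923 ProbeSets (grey), with the UGT ProbeSets in colour and a dashed line of equality. Both Ugt2b ProbeSets stand far above the line, at differences of 9.96 and 5.94 log2 units, whereas Ugt2b15, Ugt2b35, Ugt2b1 and both Ugt1a ProbeSets lie close to it.

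The relatives of Ugt2b remained well expressed in the strains that lacked its signal. The lowest single array read 11.83 for Ugt2b15, 12.96 for Ugt2b35, 8.77 for Ugt2b1, 11.67 for the second Ugt1a ProbeSet and 12.05 for the first Ugt1a ProbeSet. The other UGT genes on the array, Ugt2b7, Ugt2a1 and Ugt8 (2 ProbeSets), were under 4 in all 20 arrays. Linear models were fitted with limma over all ProbeSets, and 3 of the 5 relatives' ProbeSets were called by the F-test over the 5 groups at 0.1% FDR, where 4.6% of all ProbeSets were called. They were Ugt2b35 (adjusted p = 1.95e-05) and the first (4.91e-05) and second (1.69e-04) Ugt1a ProbeSets. Ugt2b1 (0.00173) and Ugt2b15 (0.00364) missed this threshold. With scan day as a random block the call of Ugt2b35 alone was left (adjusted p = 6.33e-04, against 0.00246 and 0.00513 for the first and second Ugt1a ProbeSets), and with array weights all 5 were called.

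Ugt2b35 mRNA lay in 3 steps, highest in S-D, intermediate in the lines and lowest in the parental strains. The S-D arrays read 13.91, 13.81, 13.61 and 13.70. The Line-A arrays read 13.30, 13.47, 13.38 and 13.37, and the Line-C arrays 13.43, 13.51, 13.33 and 13.35. The L-E arrays read 13.19, 13.11, 13.09 and 13.19, and the H/W arrays 13.15, 12.96, 13.10 and 13.24. No array of 1 step overlapped with another step, whereas within the lines and within the parental strains the arrays overlapped. How many of all ProbeSets lay in such steps was not counted. The mean of the lines exceeded that of the parental strains by 0.26 ± 0.05 log2 units (SE), 1.20-fold, with a limma adjusted p of 0.00127. The lines' values of Ugt2b35 were known when the members were chosen, so this p-value is no independent support. With scan day as a random block the adjusted p was 0.0587, which ends this call.

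Ugt2b15 was likewise highest in S-D, with both lines above both parental strains on average, but with wider spread. Its means were 12.83 ± 0.17 in S-D, 12.49 ± 0.15 in Line-A, 12.34 ± 0.33 in Line-C, 12.15 ± 0.08 in L-E and 12.05 ± 0.19 in H/W (SD, n = 4). The Line-C arrays read 12.40, 12.74, 11.95 and 12.26 and the H/W arrays 12.25, 11.99, 11.83 and 12.15, so that the lines and the parental strains overlapped. The lines exceeded the parental strains by 0.31 ± 0.10 log2 units, 1.24-fold, at a limma adjusted p of 0.0334. These values of Ugt2b15 were likewise known beforehand, so the p-value is no independent support. The call was lost with equal array medians (adjusted p = 0.0882) and with scan day as a random block (0.322). It was also lost when any of L-E replicate 2 or 4, H/W replicate 2 or 3, Line-A replicate 2 or Line-C replicate 2 was left out (adjusted p = 0.0502 to 0.0606).

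The contrast between the lines and the parental strains was thus in the direction of Ugt2b for Ugt2b15 and Ugt2b35, but small. The estimate for Ugt2b1 was of like size with a wider interval. Across the array 24.4% of ProbeSets were called at 5% FDR in this contrast, 17.8% higher in the lines and 6.54% lower, and 3 of the 5 relatives' ProbeSets were called, 2 of them higher and 1 lower. The lines lay higher in 73.2% of all calls as deposited and in 41.9% with equal array medians. The median difference over all ProbeSets was 0.04 log2 units. Ugt2b1 was not called between the lines and the parental strains (0.29 ± 0.23, 95% interval -0.19 to 0.76, limma adjusted p = 0.303). The probes of the Ugt2b family were not given as sequences here, and whether those of Ugt2b15 and Ugt2b35 also bind Ugt2b transcripts was not tested.

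The first Ugt1a ProbeSet went the other way. Its Line-A arrays read 12.07, 12.45, 12.05 and 12.17 and the Line-C arrays 12.43, 12.37, 12.60 and 12.45. The L-E arrays read 13.24, 13.05, 12.74 and 12.64 and the H/W arrays 12.96, 12.79, 13.08 and 12.83. Every line array was below every parental array. How many of all ProbeSets were split in this way was not counted, and 6.54% were called lower in the lines at 5% FDR. The lines were lower by 0.59 ± 0.08 log2 units, a difference of 1.51-fold, with a limma adjusted p of 2.00e-04, and of 0.0122 with scan day as a random block. Such a block cannot remove a day effect here, since the lines and the parental strains shared no scan day. At 5% FDR, a looser threshold than the 1% used for pairs elsewhere, both lines were below both parental strains here and above both for Ugt2b35, whereas over the array 4.12% of ProbeSets lay outside both parental strains for Line-A and 2.14% for Line-C. With scan day as a random block this place was lost for Line-C in the first Ugt1a ProbeSet (adjusted p = 0.106 against L-E and 0.164 against H/W) and for both lines in Ugt2b35 (0.102 to 0.147). It was lost for the same lines in fits to 2 groups, against H/W only (0.0585 for the first Ugt1a ProbeSet in Line-C, 0.104 and 0.133 for Ugt2b35 in Line-A and Line-C).

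The second Ugt1a ProbeSet did not show this step. Its means were 11.92 ± 0.21 in Line-A and 12.20 ± 0.09 in Line-C, against 12.16 ± 0.17 in L-E and 12.27 ± 0.14 in H/W. The lines and the parental strains overlapped, and their difference of -0.16 ± 0.07 log2 units missed the threshold (limma adjusted p = 0.0909), although it passed with equal array medians (-0.22, adjusted p = 0.0499). Both ProbeSets carry the same 8 gene annotations, so the pair does not give a single reading of Ugt1a mRNA.

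Of 5 cholangiocyte markers on the array, 2 (Krt7 and Spp1) were under 4 in all arrays, and the summed log2 level of the list was 7.26 to 7.99 in the lines against 7.93 to 9.15 in the parental strains. The sum was carried by Slc4a2, an anion exchanger, at -1.48 log2 units in the lines minus the parental strains, against 0.22 for Epcam and -0.02 for Krt19. Its part in the differences of the UGT ProbeSets was not tested.

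**Figure D3:**
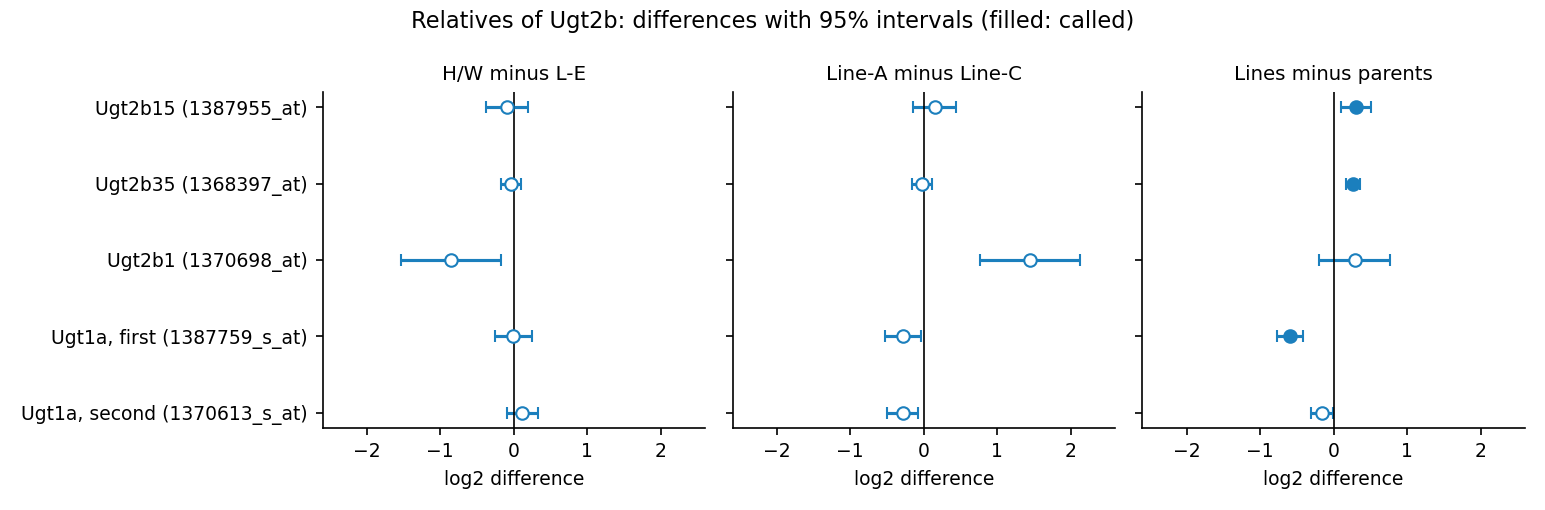
Differences in log2 signal for the 5 ProbeSets of the relatives of Ugt2b, with 95% intervals from limma: H/W minus L-E, Line-A minus Line-C, and the mean of the lines minus the mean of the parental strains. Filled points passed the threshold of the contrast (1% FDR for the pairs, 5% for lines minus parents). Ugt2b15 and Ugt2b35 lie above 0 in the last panel and the first Ugt1a ProbeSet below it, and Ugt2b1 lies on opposite sides of 0 in the first and second panels.

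Ugt2b1, which encodes an enzyme known for conjugating testosterone and morphine, was the relative with the widest range of group means. The S-D arrays read 11.45, 11.21, 10.09 and 11.54, and the Line-A arrays 10.81, 10.80, 10.71 and 11.04. The L-E arrays read 10.04, 10.26, 10.27 and 10.46. The H/W arrays read 8.98, 8.96, 10.17 and 9.52, and the Line-C arrays 9.45, 9.27, 8.77 and 10.08. H/W and Line-C were thus the low groups by mean and overlapped. The mean of L-E lay between, although its arrays overlapped with those of H/W and of Line-C. Line-A lay above all L-E, H/W and Line-C arrays. S-D was high in 3 arrays, with 1 array (replicate 3) at the level of L-E. The within-group SD was 0.14 in Line-A and 0.17 in L-E but 0.54 to 0.67 in the other 3 groups.

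In the order of means, S-D (11.07 ± 0.67), Line-A (10.84 ± 0.14), L-E (10.26 ± 0.17), H/W (9.41 ± 0.57) and Line-C (9.39 ± 0.54), no neighbouring pair differed at 1% FDR in limma. Line-A minus S-D was -0.23 (95% interval -0.91 to 0.45) and Line-C minus H/W was -0.01 (-0.69 to 0.66).

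The difference between the parental strains was set beside that between the lines, since each pair holds a mutant and a wild-type Ahr allele. H/W minus L-E was -0.85 ± 0.32 log2 units (95% interval -1.53 to -0.17, limma adjusted p = 0.177) and Line-A minus Line-C was 1.45 ± 0.32 (0.77 to 2.13, adjusted p = 0.0323). Neither passed 1% FDR, and the Line-A and Line-C arrays did not overlap, for which the share of all ProbeSets was not counted. The difference between these differences was -2.30 ± 0.45 log2 units and passed 5% FDR (limma adjusted p = 0.0112), where 2.01% of all ProbeSets did. It passed as well when each of the 20 arrays in turn was left out, with values of -2.55 to -2.09, and with scan day as a random block (-2.29, adjusted p = 0.0107). Within the 1 scan day that held 2 H/W and 3 L-E arrays, H/W minus L-E was -0.77 log2 units.

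The Ahr coefficient of Ugt2b1, from a model in which each line takes its share of 0.5 from either parental strain, was 1.45 ± 0.33 and just missed 5% FDR (limma adjusted p = 0.0511), where 0.659% of ProbeSets were called. This estimate equals that of Line-A minus Line-C, so the coefficient restates the difference between the lines. Over 7 alternative settings its adjusted p ranged from 0.0197 to 0.0688, and with 1 array left out from 0.0199 to 0.148. Of 7 Kupffer cell markers on the array, 0 were under 4 in all arrays, and their summed log2 level was 10.88 to 11.02 in Line-A, 11.78 to 12.06 in Line-C, 11.20 to 11.74 in H/W and 11.54 to 12.04 in L-E. Their part in the Ugt2b1 difference was not tested.

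For the other relatives the same pairs were close. Between H/W and L-E, where 1.38% of all ProbeSets were called at 1% FDR, 0 of the 5 ProbeSets were called by limma and 1 (Ugt2b1) had an unadjusted p under 0.05. The 95% intervals were -0.17 to 0.10 log2 units for Ugt2b35, -0.38 to 0.19 for Ugt2b15, -0.10 to 0.32 for the second Ugt1a ProbeSet and -0.25 to 0.24 for the first Ugt1a ProbeSet. Between Line-A and Line-C, where 0.534% were called, 0 of 5 were called by limma and 3 had an unadjusted p under 0.05, Ugt2b1 and both Ugt1a ProbeSets. Line-A minus Line-C was -0.28 log2 units for each Ugt1a ProbeSet (limma adjusted p = 0.425 for the first and 0.276 for the second). In the Ahr coefficient 0 of 5 were called (0.659% of all ProbeSets were), with 2 at an unadjusted p under 0.05, against 1068 of 15923 ProbeSets. For pairs of groups the array-wide count at such a p was not taken.

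S-D had the highest mean of all 5 groups for each of the 7 member ProbeSets, though not for Ugt2b7, Ugt2a1 or Ugt8, which were under the limit of expression. For Ugt2b15 its arrays read 12.64 to 13.03, for the second Ugt1a ProbeSet 12.68 to 12.88 and for the first Ugt1a ProbeSet 13.16 to 13.36. Against L-E, 3 of 5 ProbeSets of the relatives were called lower at 1% FDR (3.06% of all ProbeSets were). They were Ugt2b35 (-0.61 ± 0.07), the second Ugt1a ProbeSet (-0.62 ± 0.10) and Ugt2b15 (-0.68 ± 0.14). Against H/W, 4 of 5 were called lower (2.34% of all), namely the same ProbeSets and Ugt2b1, which was lower in H/W by 1.67 ± 0.32 log2 units, 3.17-fold, with a limma adjusted p of 0.00381.

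The lines also lay below S-D. In Line-A 3 of 5 were called lower (3.97% of all), Ugt2b35 (-0.38 ± 0.07) and both Ugt1a ProbeSets (-1.07 ± 0.12 for the first and -0.86 ± 0.10 for the second). In Line-C 4 of 5 were called lower (2.75% of all), Ugt2b35 (-0.35 ± 0.07), Ugt2b1 (-1.68 ± 0.32) and both Ugt1a ProbeSets (-0.79 ± 0.12 for the first and -0.58 ± 0.10 for the second). None of the 5 was called higher than in S-D by limma in any of these 4 comparisons. Of all 15923 ProbeSets, 320 were called higher in L-E, 148 in H/W, 418 in Line-A and 246 in Line-C. In each comparison 4 or 5 of 5 had an unadjusted p under 0.05, without an array-wide count beside it. The 4 comparisons share the S-D arrays. With scan day as a random block only 1 of 5 passed against H/W and 1 of 5 for Line-C.

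S-D livers differed from the others in further ways. The summed log2 level of 11 stellate cell and fibroblast markers, of which Des and Tagln were under 4 in all arrays, was 10.78 to 11.58 in S-D and 9.25 to 10.46 in the other groups. That of 6 liver endothelium markers, 2 of them under 4 in all arrays, was 11.51 to 11.81 in S-D and 10.91 to 11.25 elsewhere, and that of the cholangiocyte markers was 9.30 to 9.38 in S-D and at most 9.15 elsewhere. For 7 blood and lymphoid markers, 3 of them under 4 in all arrays, it was 11.23 to 11.86 in S-D and 10.70 to 13.20 elsewhere. The stellate sum was set mainly by Col3a1 (mean 10.85 in S-D, 8.75 to 9.52 elsewhere) and the blood sum by Hbb (11.46 in S-D, 11.74 to 12.60 elsewhere). Stellate markers such as Acta2 (5.44 in S-D, 4.55 to 5.40 elsewhere) and Pdgfrb (4.43, 4.11 to 4.40) differed less. The 3′ minus 5′ signal of the GAPDH control, a sign of RNA quality, was 0.56 ± 0.02 in S-D and 0.28 to 0.49 on average in the other groups, whereas for beta-actin (2.02 in S-D, 1.79 to 2.06 elsewhere) and hexokinase (-0.31 in S-D, -0.38 to -0.31 elsewhere) S-D lay within the range of the other groups. Their part in the S-D differences was not tested.

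**Figure D4:**
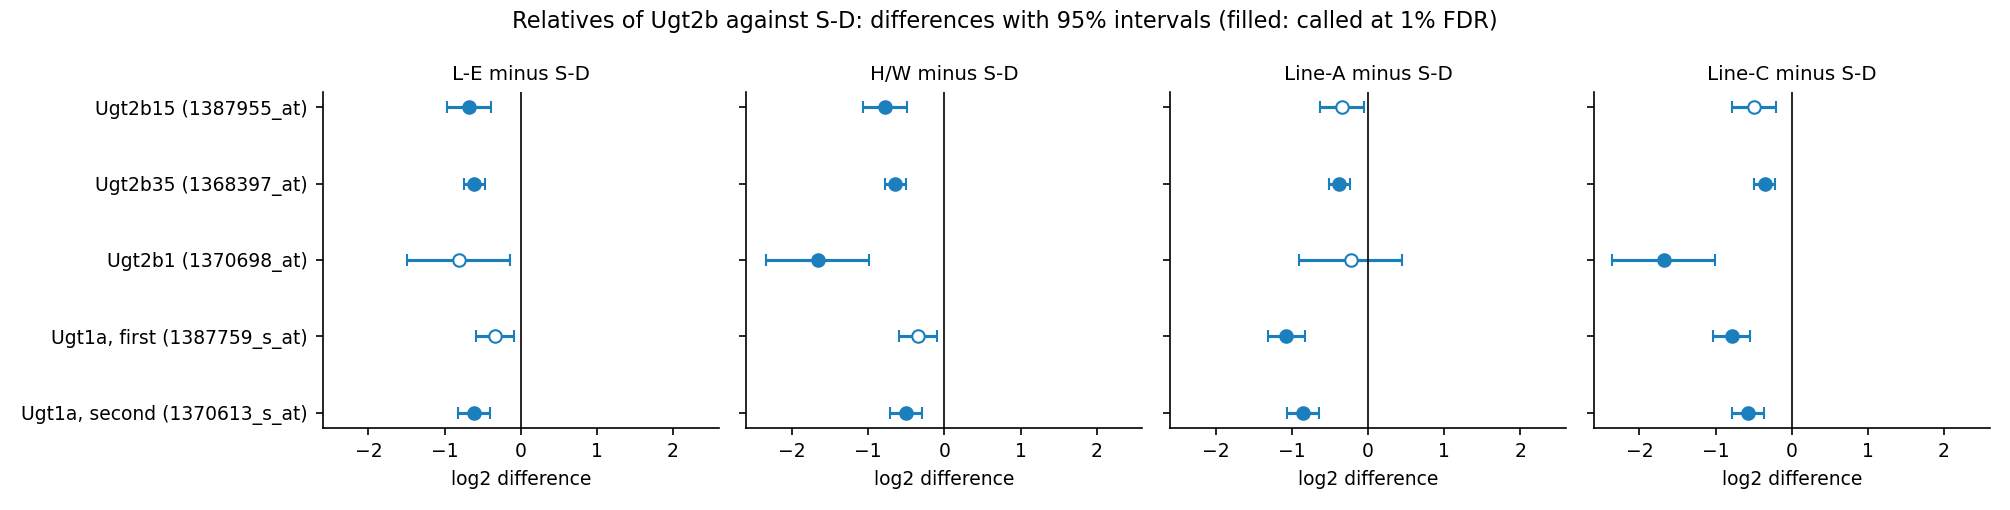
Differences in log2 signal from S-D for the 5 ProbeSets of the relatives of Ugt2b, with 95% intervals from limma and filled points where the difference passed 1% FDR. All 20 differences lie below 0, from -0.23 for Ugt2b1 in Line-A to -1.68 for Ugt2b1 in Line-C.

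Among the remaining pairs, 1 of 5 ProbeSets was called lower in Line-A than in L-E (3.03% of all ProbeSets) and 1 of 5 lower than in H/W (1.44%). In both pairs it was the first Ugt1a ProbeSet, lower in Line-A by 0.73 ± 0.12 log2 units. In fits to the arrays of the 2 groups only, both calls were lost (limma adjusted p = 0.0313 against L-E and 0.0223 against H/W). Between Line-C and L-E (3.71%) and between Line-C and H/W (1.7%), 0 of 5 were called by limma, with 3 and 2 at an unadjusted p under 0.05.

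The genes around Ugt2b were taken in their chromosomal order from RefSeq, with 15 genes on either side of the Ugt2b members. Of 44 genes in this window of chromosome 14, 12 had a ProbeSet and 7 had a mean signal of at least 4. Apart from the UGTs these were Sult1e1, Sult1b1 and Ythdc1. Sult1e1, which sulfates estrogens, averaged 14.24 ± 0.05 in L-E and 14.34 ± 0.12 in H/W against 13.36 ± 0.13 in Line-A, 13.79 ± 0.09 in Line-C and 13.76 ± 0.11 in S-D. It was lower in the lines than in the parental strains by 0.72 ± 0.05 log2 units (limma adjusted p = 4.63e-07), and its S-D and line arrays all lay below the parental arrays, as for 0.107% of all ProbeSets.

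Sult1b1, a sulfotransferase of phenols and thyroid hormones, went in the direction of Ugt2b. It averaged 11.74 ± 0.06 in L-E and 12.16 ± 0.23 in H/W against 12.47 ± 0.07 in Line-A, 12.64 ± 0.19 in Line-C and 12.66 ± 0.11 in S-D, with all S-D and line arrays above the parental arrays (gap 0.08), as for 0.226% of all ProbeSets. The lines were higher by 0.61 ± 0.07 (limma adjusted p = 4.40e-05). Ythdc1, which binds methylated RNA and lies on the far side of the cluster, averaged 8.33 over all arrays with a difference of 0.05 ± 0.12 (adjusted p = 0.723). The array places no gene in the L-E or H/W genome, and the order is that of the reference strain.

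**Figure D5:**
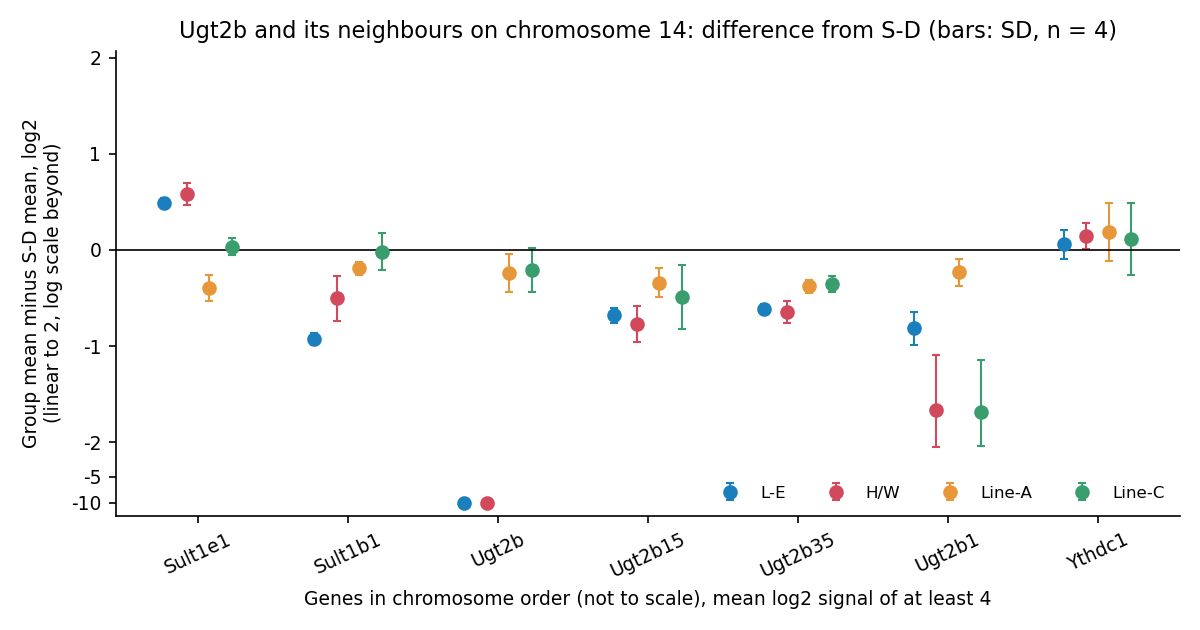
Group mean minus S-D mean in log2 units (points, with the group SD as bars, n = 4) for the 7 genes around Ugt2b with a mean log2 signal of at least 4, in chromosome order. The axis is linear to 2 and logarithmic beyond, and Ugt2b is shown by its first ProbeSet. L-E and H/W lie about 10 units below S-D at Ugt2b, below both lines at Sult1b1, Ugt2b15 and Ugt2b35, and above them at Sult1e1.

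The genes that supply and use glucuronic acid were looked at beside the UGTs, as were transporters, steroid enzymes and regulators. Of 12 genes of glucuronate supply and use on the array, 3 were called by the F-test (4.6% of all ProbeSets were), Cryl1 (L-gulonate dehydrogenase), Ugp2 (UDP-glucose pyrophosphorylase) and Rgn (a gluconolactonase). Ugp2 averaged 10.91 in L-E against 11.79 to 11.92 in the other groups, and Rgn 12.97 in L-E against 13.31 to 13.65. Cryl1 ranged from 4.94 in Line-C to 7.11 in S-D. In the contrast of lines with parental strains 6 of 12 were called higher and 0 lower (17.8% and 6.54% of all ProbeSets), with a median difference of 0.15 log2 units against 0.04 over all ProbeSets. With equal array medians 2 of 12 were called higher and 0 lower.

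Of 13 transporters of glucuronides and bile salts, 2 were called by the F-test (4.6% of all ProbeSets). Slco2b1 averaged 9.36 in L-E against 8.01 to 8.40 elsewhere, and Slco1b2 averaged 11.52 in H/W against 11.95 to 12.40. Both are uptake carriers of organic anions. In the lines 1 of the 13 was called higher and 5 were called lower than in the parental strains (17.8% and 6.54% of all ProbeSets), with a median difference of -0.13 log2 units. With equal array medians and after further quantile normalization the counts were 0 higher and 5 lower. Slco2b1 fell by 0.86 log2 units in the lines (limma adjusted p = 5.81e-05).

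Of 26 genes of steroid and bilirubin handling, 8 were called by the F-test (4.6% of all ProbeSets). The 4 with the widest range were Cyp2c12, a steroid hydroxylase with a lowest mean of 6.46 (H/W) and a highest of 11.79 (Line-C), Hsd17b6, a hydroxysteroid dehydrogenase at 10.63 in S-D against 13.07 to 13.29, Hmox1, the heme oxygenase that starts bilirubin formation, lowest at 5.06 (H/W) and highest at 7.16 (L-E), and Cyp2a1, a testosterone hydroxylase at 8.95 in L-E against 7.65 to 8.12. Cyp2c12 had an Ahr coefficient of -3.86 (limma adjusted p = 0.00872), with both groups carrying the mutant allele low. In the lines 6 were called higher and 9 lower, against 17.8% and 6.54% of all ProbeSets.

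Of 18 genes of the AHR, NRF2 and CAR/PXR responses, 7 were called by the F-test (4.6% of all ProbeSets), led by Aldh1a1 (Line-C 7.44, L-E 11.45), Nqo1 (H/W 5.46, L-E 9.47), Hmox1 and Cyp3a9 (S-D 9.34, Line-C 11.06). Nqo1, a reductase under AHR and NRF2 control, was low in S-D (5.67) and H/W and at 8.76 to 9.47 in L-E, Line-A and Line-C. In the Ahr coefficient 0 of the 18 were called by limma, against 0.659% of all ProbeSets. An unadjusted p under 0.05 was found for 2 of the 18, against 1068 of 15923 ProbeSets.

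Of 22 regulators with a known part in UGT expression, mostly transcription factors but also Ghr and Keap1, 2 were called by the F-test (4.6% of all ProbeSets). Cebpa averaged 9.09 in L-E, 8.62 in H/W, 8.16 in S-D, 7.74 in Line-C and 7.86 in Line-A, and was lower in the lines by 1.06 log2 units (limma adjusted p = 1.26e-04). Arnt, the partner of AHR, was under 4 on average in every group (2.98 to 3.57). In the lines 3 of the 22 were called higher and 4 lower, against 17.8% and 6.54% of all ProbeSets, and 0 and 4 with equal array medians.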

How the data were processed

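Liver mRNA of 20 rats was measured on Affymetrix RAE230A arrays without pooling. The authors deposited log2 signals, made with GC-RMA (GCRMA 2.10.0 and affy 1.12.0 in R 2.6.1 by the submitters' processing notes), which corrects probes for background by GC content, sets arrays to a common distribution and summarises probes to ProbeSets. These values were used without further scaling. Background correction compresses signals near the floor, so that folds against groups with a mean under 4 are given as bounds from that limit, while other folds and the gaps are those of the deposited values and may be compressed. The number of arrays limits the precision.

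ProbeSets were named by the platform annotation, 12789 with 1 symbol, 312 with several and 2822 with none. Members and gene lists were chosen with earlier results of these data known, among them the lines' values of Ugt2b15 and Ugt2b35, so no test here is independent support. All 20 arrays entered 1 fit in limma 3.58.1 (R 4.3.3, statmod 1.5.0), with p-values adjusted by Benjamini and Hochberg over 15923 ProbeSets. Thresholds were 1% FDR for pairs, 0.1% for the F-test and 5% for the other contrasts. The difference between parents against that between lines was a contrast of the same fit.

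The named genes were all UGT ProbeSets, up to 4 F-test calls per list with the widest range of group means, the 5 and 3 largest gaps, and the array's genes among the 15 nearest on either side. Genes with several ProbeSets were represented by that with the highest mean. Steps were tested on simulated data. Alternatives were trend and robust moderation, array weights, a filter at a mean of 4, equal array medians, further quantile normalization, a replicate block, scan day as a random block, fits to 2 groups, within-day values and leaving out each array. Promoter windows came from RefSeq (GRCr8) and were aligned with Biopython 1.88.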

Additional observations from a re-analysis of the deposited data

Results flagged for a closer look

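Ugt2b1 was singled out because the difference between the parental strains and that between the lines, which carry the same pair of Ahr alleles, went in opposite directions. H/W minus L-E was -0.85 log2 units and Line-A minus Line-C 1.45, and the difference between them was -2.30 ± 0.45 (SE, limma adjusted p = 0.0112). In none of the 35 sets of 4 arrays (7 UGT ProbeSets in 5 groups) did 1 array stand apart from the other 3 by Dixon's criterion.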

How the results depend on the processing

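The gaps of Ugt2b stayed at 9.24 to 9.42 and 5.30 to 5.61 log2 units under the scalings tried and with any array left out, and for Ugt2b1 the difference of H/W minus L-E from Line-A minus Line-C was called under each setting. Other counts of the relatives' 5 ProbeSets moved, and the cause was not tested. The Ahr coefficient called 1 ProbeSet, Ugt2b1, in place of 0 with trend and robust moderation, array weights, the filter at 4, further quantile normalization and scan day as a random block. Line-A minus H/W called 2 in place of 1 with trend and robust moderation and with the filter. Array weights called 1 for Line-A minus Line-C, 2 for Line-A minus L-E, 2 for Line-C minus L-E and 5 by the F-test. Scan day as a random block left 1 for H/W minus S-D, 1 for Line-C minus S-D, 1 for the lines against the parental strains and 1 by the F-test. Fits to 2 groups left 1 for H/W minus S-D, 2 for Line-C minus S-D and 0 for Line-A against L-E and against H/W.

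Leaving out 1 array gave 0 to 1 calls for the Ahr coefficient, Line-A minus Line-C, Line-C minus L-E and Line-C minus H/W, 1 to 2 for Line-A minus H/W and 2 to 4 for H/W minus S-D (2 without S-D replicate 1 or 4 or H/W replicate 1 or 2). The Ahr call of Ugt2b1 appeared without S-D replicate 3, H/W replicate 1, 2 or 3 or Line-C replicate 4, and that of Line-A minus Line-C without S-D replicate 3. Signs turned only for differences near 0 that were not called. These were Line-C minus H/W of Ugt2b1 (0.17 with array weights, 0.0029 with scan day as a random block, -0.24 to 0.24 leaving out an array), Line-C minus L-E of the second Ugt1a ProbeSet (-0.041 with equal array medians, -0.040 to 0.093), H/W minus L-E of the first Ugt1a ProbeSet (0.12 within 1 scan day, -0.10 to 0.10), and for Ugt2b35 the Ahr coefficient (0.056 with array weights, -0.093 to 0.047), the difference of H/W minus L-E from Line-A minus Line-C (0.046 after quantile normalization, -0.052 to 0.040), H/W minus L-E (-0.078 to 0.015) and Line-A minus Line-C (-0.055 to 0.0094).

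Arrays with the same replicate number did not deviate together (mean correlation -0.0098, lowest -0.34), so the numbers do not pair the rats. A replicate block changed no call, and that difference of Ugt2b1 was -2.30 with it. Probe signals near the floor limit what can be said of Ugt2b in L-E and H/W.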
